A study of Mus musculus with 6 samples.

Results

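The Wnt pathway genes examined here were the 46 protein-coding genes, of 22367 in the mouse annotation, that met a rule on gene names. They were every gene whose symbol starts with Wnt or Fzd followed by a number, and a set of other core genes of the pathway, namely Axin1, Axin2, Apc, Ctnnb1, Lef1, Tcf7, Tcf7l1, Tcf7l2, Lrp5, Lrp6, Dvl1, Dvl2, Dvl3, Dkk1, Sfrp1, Gsk3b and Nkd1. A peak of RBPJ occupancy was assigned to a gene when its center lay inside the gene or within 25 kb of it, and the other 22321 protein-coding genes served as the comparison. RBPJ is the DNA-binding protein through which Notch signals reach their target genes, and its occupancy was mapped by chromatin immunoprecipitation and sequencing in F9 cells, a mouse embryonal carcinoma line from a testicular teratoma. The populations compared were asynchronous cells, which the labels describe as 95% in interphase and 5% in mitosis, and cells arrested in mitosis with nocodazole, a drug that depolymerizes microtubules. Both were fixed in 1% formaldehyde for 10 min, and 70 µg of chromatin went into each precipitation with a custom rabbit polyclonal antibody against mouse RBPJ. Of the 6 samples (2 precipitations and 1 input per population), the first precipitation of each population came with a peak list, so 1 list per population was compared. No replicate spread could be computed, and every interval below covers counting error only. The identity of the F9 cells could not be checked from peak positions.

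Wnt proteins are secreted ligands that bind Frizzled receptors together with the co-receptors Lrp5 and Lrp6. Dishevelled proteins relay the signal, which stops a complex of Axin, Apc and the kinase Gsk3b from marking β-catenin for destruction, and β-catenin then enters the nucleus and activates genes with the TCF/LEF factors. The pathway guides axis formation and cell fate in the early embryo and acts in pluripotent and embryonal carcinoma cells, often beside Notch signaling, while some Wnt ligands act without β-catenin on cell shape and movement.

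The asynchronous list held 5206 peaks of 173 bp and the mitotic list 3227 peaks of 203 bp. Each peak has a score given by the authors, whose scale is not stated, so scores are compared here only within a list. Asynchronous scores had a median of 11.8 and a range of 10.1 to 58.3, and mitotic scores a median of 10.9 and a range of 10.2 to 282.5. The lowest score was shared by 14.4% of asynchronous and by 42.6% of mitotic peaks. A peak of each list that overlapped by at least 1 bp was called a pair. Such overlap took in 403 peaks of each list, or 7.74% of asynchronous and 12.5% of mitotic peaks. The paper instead called a site specific to a population by a fold difference in enrichment, so its common sites are a different measure. Absence from a list means that no peak was called there, and does not show that RBPJ was absent.

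RBPJ peaks lay at 24 of the 46 Wnt pathway genes in either list, where 36.7% of the other protein-coding genes had a peak. In asynchronous cells 17 genes had a peak, or 37.0% (exact Clopper-Pearson 95% interval 23.2 to 52.5), beside 29.7% of the other genes. In mitotic cells 16 genes had a peak, or 34.8% (21.4 to 50.2), beside 18.2%. The interval of the mitotic share lay above the share of the other genes, and the interval of the asynchronous share contained it. With mitotic peaks restricted to scores at or above the median, the mitotic share was 15.2% (6.34 to 28.9) beside 11.7%, which the interval contained. Peaks of both lists were found at 9 genes, or 19.6% (9.36 to 33.9), beside 11.2% of the other genes, and these were Wnt5b, Wnt8b, Wnt11, Lrp5, Lrp6, Dvl2, Dvl3, Ctnnb1 and Lef1. A pair was present at 3 of them, Wnt11, Lrp5 and Dvl2, or 6.52% (1.37 to 17.9), beside 3.93%. The remaining genes with a peak had it in the asynchronous list alone (8) or in the mitotic list alone (7). Genes with an asynchronous peak alone made up 17.4% of the Wnt pathway genes (7.82 to 31.4) and 18.5% of the other genes. Genes with a mitotic peak alone made up 15.2% of the Wnt pathway genes (6.34 to 28.9) and 6.99% of the other genes.

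**Figure D1:**
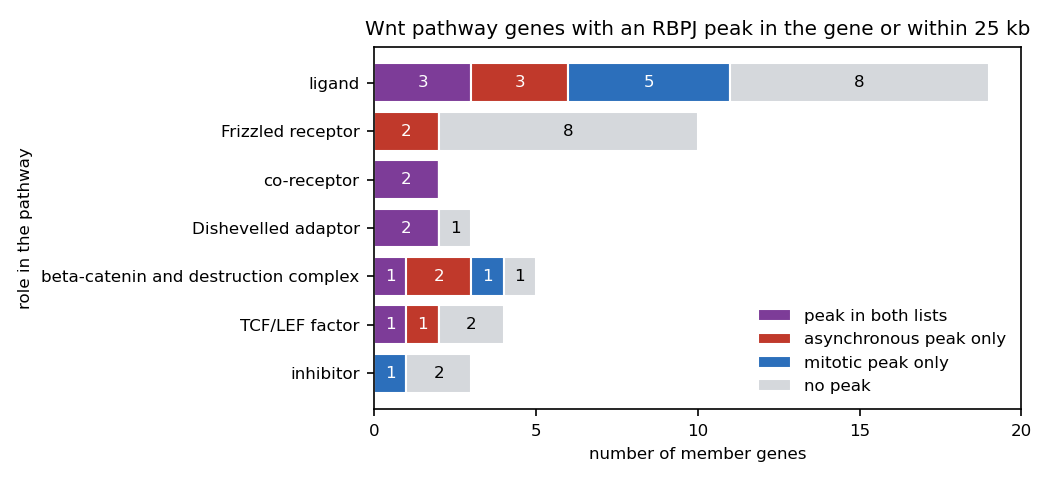
Number of Wnt pathway genes (horizontal axis) in each role (vertical axis), divided by the list in which an RBPJ peak lay in the gene or within 25 kb. The co-receptor genes Lrp5 and Lrp6 had peaks in both lists, beside 11.2% of the other protein-coding genes, and 8 of the 10 Frizzled genes had none, beside 63.3%.

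The pairs were the sites at which a Wnt pathway gene had RBPJ occupancy recorded at the same position in both populations. Their sequences are printed first because they carry that result, from the plus strand of NCBIM37 (mm9), over the stretch covered by either peak. Capitals mark the nuclear tRNA B box motif at Wnt11 and the short RBPJ core TTCCCA, in either orientation, at Lrp5 and Dvl2. None of the 3 held the longer RBPJ motif TTCCCACA or TTCCCACG, of which TTCCCA is the first part.
Wnt11 pair, chr7:105963860-105964081: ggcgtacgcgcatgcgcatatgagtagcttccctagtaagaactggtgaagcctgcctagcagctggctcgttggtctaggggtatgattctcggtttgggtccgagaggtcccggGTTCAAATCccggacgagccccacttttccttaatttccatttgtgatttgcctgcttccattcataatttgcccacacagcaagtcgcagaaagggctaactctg
Lrp5 pair, chr19:3575769-3575990: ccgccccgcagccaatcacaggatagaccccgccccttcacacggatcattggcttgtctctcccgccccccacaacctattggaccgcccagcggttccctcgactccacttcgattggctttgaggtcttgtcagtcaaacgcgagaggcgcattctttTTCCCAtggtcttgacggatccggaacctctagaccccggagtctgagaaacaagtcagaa
Dvl2 pair, chr11:69809030-69809245: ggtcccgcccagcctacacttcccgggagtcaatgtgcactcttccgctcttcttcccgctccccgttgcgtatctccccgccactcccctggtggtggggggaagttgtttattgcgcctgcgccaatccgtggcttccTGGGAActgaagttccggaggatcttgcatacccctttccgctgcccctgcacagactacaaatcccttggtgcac

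The next sequences are the asynchronous peaks that held the longer RBPJ motif, in capitals, at a gene of the pathway. In the Wnt5b peak the motif is read on the minus strand, so the plus strand shows its reverse complement.
Wnt5b peak with the RBPJ motif, chr6:119367527-119367699: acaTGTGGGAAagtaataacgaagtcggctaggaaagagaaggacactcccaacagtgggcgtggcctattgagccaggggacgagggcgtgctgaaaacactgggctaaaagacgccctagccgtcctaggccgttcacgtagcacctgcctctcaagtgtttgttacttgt
Ctnnb1 peak with the RBPJ motif, chr9:120828293-120828465: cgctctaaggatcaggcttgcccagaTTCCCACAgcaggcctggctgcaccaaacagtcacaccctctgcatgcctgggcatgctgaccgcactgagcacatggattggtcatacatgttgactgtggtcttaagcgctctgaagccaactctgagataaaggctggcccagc

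The asynchronous peaks at a promoter of the gene itself are shown for Wnt7a, Dvl2, Axin1 and Tcf7l2, with the peak upstream of Lef1, which tied with a Lrp5 peak for the highest asynchronous score at these genes. TTCCCA is in capitals where present, which was in the Axin1 peak alone among these 5.
Wnt7a promoter peak, chr6:91361798-91361970: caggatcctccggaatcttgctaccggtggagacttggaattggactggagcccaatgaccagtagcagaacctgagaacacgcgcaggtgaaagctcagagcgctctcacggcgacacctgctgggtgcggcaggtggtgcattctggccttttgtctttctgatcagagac
Dvl2 promoter peak, chr11:69813920-69814092: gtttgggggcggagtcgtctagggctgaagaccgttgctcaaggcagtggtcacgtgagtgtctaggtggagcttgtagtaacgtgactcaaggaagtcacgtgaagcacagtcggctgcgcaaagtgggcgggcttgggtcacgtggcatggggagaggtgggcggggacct
Axin1 promoter peak, chr17:26275208-26275380: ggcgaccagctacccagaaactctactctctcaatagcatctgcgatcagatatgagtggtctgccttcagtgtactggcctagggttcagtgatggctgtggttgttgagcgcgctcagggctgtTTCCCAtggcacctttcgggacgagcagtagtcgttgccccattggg
Tcf7l2 promoter peak, chr19:55815825-55815997: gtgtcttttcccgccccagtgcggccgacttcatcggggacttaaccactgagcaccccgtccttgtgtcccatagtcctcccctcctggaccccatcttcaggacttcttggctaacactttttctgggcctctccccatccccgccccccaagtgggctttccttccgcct
Lef1 upstream peak, chr3:130805170-130805342: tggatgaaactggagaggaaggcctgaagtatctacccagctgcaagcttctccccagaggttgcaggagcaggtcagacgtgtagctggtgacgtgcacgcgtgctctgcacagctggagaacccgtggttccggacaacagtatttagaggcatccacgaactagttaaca

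Among the 19 Wnt ligand genes, 11 had a peak, 3 in both lists (Wnt5b, Wnt8b and Wnt11), 3 in the asynchronous list alone (Wnt6, Wnt7a and Wnt10a) and 5 in the mitotic list alone (Wnt1, Wnt3a, Wnt7b, Wnt9a and Wnt10b). The share with an asynchronous peak was 31.6% (12.6 to 56.6), beside 29.7% of the other protein-coding genes, and the share with a mitotic peak 42.1% (20.3 to 66.5), beside 18.2%. Neighboring ligand genes shared peaks, so these counts are not independent. Wnt6 and Wnt10a had the same 3 asynchronous peaks, Wnt1 and Wnt10b the same mitotic peak, and Wnt3a and Wnt9a a mitotic peak in common. No peak of either list was assigned to Wnt2, Wnt2b, Wnt3, Wnt4, Wnt5a, Wnt8a, Wnt9b or Wnt16.

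Wnt11 (ENSMUSG00000015957.4), a ligand known for directing cell movements at gastrulation largely without β-catenin, had 2 asynchronous and 3 mitotic peaks. Its pair lay in intergenic DNA, 19676 bp upstream of the gene start as measured from the asynchronous center. The asynchronous peak, chr7:105963860-105964032, scored 15.6, above 84.2% of its list. The mitotic peak, chr7:105963879-105964081, scored 14.6, above 94.0% of its list, and was the highest scoring mitotic peak at any of the 46 genes. The peaks overlapped by 154 bp and their centers were 34 bp apart, and no other protein-coding gene lay within 25 kb of them. A second asynchronous peak (score 11.8) lay 18740 bp upstream of the gene. The other mitotic peaks lay 11318 bp upstream and in an intron 4637 bp past the start, both at the lowest mitotic score of 10.2.

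The sequence of the Wnt11 pair held the B box GTTCAAATC at chr7:105963976-105963984, the internal promoter element of tRNA genes. The box was centered on the mitotic peak and lay 34 bp from the center of the asynchronous peak. RefSeq, in the different build GRCm38.p6, places the tRNA-Pro genes n-TPtgg8 and n-TPagg7 at 19.6 and 19.4 kb upstream of Wnt11. The gene models used for the assignment carry no nuclear tRNA gene there. This search was made after the Wnt11 values were seen, and whether the tRNA gene has a part in the peaks was not tested.

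Wnt5b (ENSMUSG00000030170.7), a ligand that acts mainly without β-catenin, had 3 asynchronous and 2 mitotic peaks, none of them overlapping. Its highest scoring asynchronous peak, chr6:119367527-119367699 (score 17.3, above 90.4% of the list), lay 14936 bp past the end of Wnt5b. It was centered 112 bp upstream of the start of Adipor2, an adiponectin receptor gene. The RBPJ motif TTCCCACA was found in it on the minus strand at chr6:119367530-119367537, 79.5 bp from the center. The other asynchronous peaks had scores of 13.1, 2142 bp upstream of Adipor2, and 10.1, in an intron of Wnt5b and 640 bp upstream of Fbxl14, which encodes an F-box protein. A mitotic peak at chr6:119399318-119399520 (score 10.2) was centered 15 bp from the start of a transcript of Wnt5b itself and held the TCF/LEF motif CTTTGAT. The other mitotic peak (score 11.6) lay in an intron.

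Wnt6 (ENSMUSG00000033227.6) and Wnt10a (ENSMUSG00000026167.8) are adjacent ligand genes on chromosome 1, and Wnt10a is known for its role in teeth and hair. The highest scoring of their 3 asynchronous peaks, chr1:74854789-74854961 (score 16.9, above 89.2% of the list), lay 16785 bp past the start of Wnt10a in intergenic DNA. It held a match to the CTCF core consensus with 1 mismatch and TTCCCA. The others were in introns of Wnt6, 1449 and 7413 bp past its start, with scores of 13.1 and 13.5. No mitotic peak lay within 25 kb of either gene.

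Wnt7a (ENSMUSG00000030093.6), which patterns the back-to-belly axis of the limb, had its asynchronous peak (score 11.0) at its own promoter, 527 bp upstream of the start. That peak, printed above, held a match to the CTCF core consensus with 1 mismatch, and no other protein-coding gene was within 25 kb. Wnt8b, a ligand gene of the developing forebrain, had an asynchronous peak in a coding exon at the lowest score of the list, 10.1. Its mitotic peak, also at the lowest score, was 18056 bp upstream of the gene, and the centers of these peaks were 35856 bp apart.

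Of the ligand genes with a mitotic peak alone, Wnt3a (ENSMUSG00000009900.7), an activator of β-catenin signaling in the embryonic axis, had 3 peaks, all at the lowest score of 10.2. The peak at chr11:59100909-59101111 was in an intron 3244 bp past the start and was also the peak of Wnt9a, 19420 bp upstream of that gene. The remaining peaks lay 3552 and 17497 bp past the end of Wnt3a, and the nearer gene start for both was that of Arf1, a small GTPase gene. Wnt1, the founding member of the family, had a peak in an intron (score 12.4) that lay 13845 bp upstream of Wnt10b. A peak of score 10.2 was 2019 bp upstream of Wnt7b, a ligand gene of the developing lung.

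**Figure D2:**
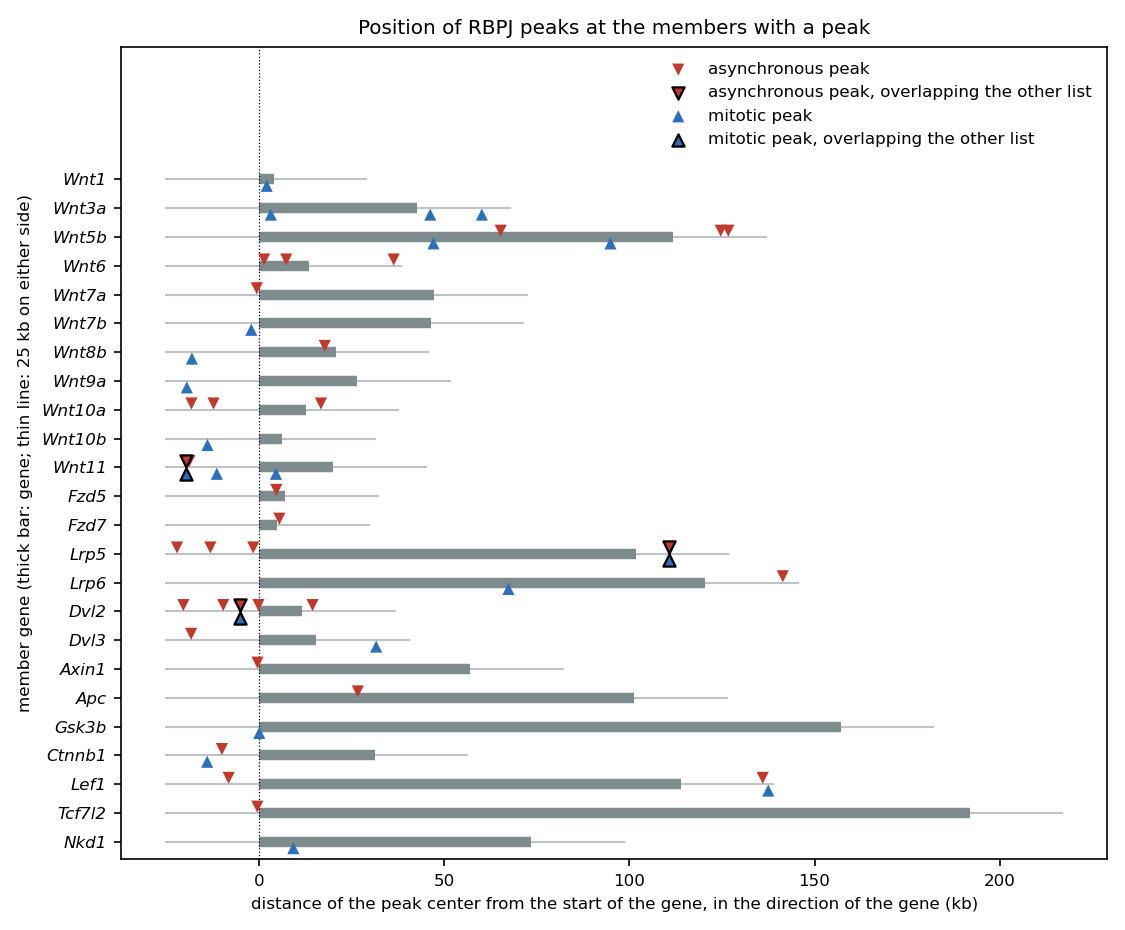
Distance of each peak center from the start of its gene, in the direction of the gene (horizontal axis, kb), for the 24 Wnt pathway genes with a peak (vertical axis), with thick bars for genes and thin lines for the 25 kb on either side. Outlined triangles are the pairs, which lay upstream of Wnt11 and Dvl2 and past the end of Lrp5.

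Of the 10 Frizzled genes, which encode the receptors of Wnt ligands, Fzd5 and Fzd7 had an asynchronous peak, or 20% (2.52 to 55.6), beside 29.7% of the other protein-coding genes. None had a mitotic peak, which at 10 genes allows a share of up to 30.8%, beside 18.2%. Both intervals contained the share of the other genes. The Fzd5 peak (score 11.0) was in an exon 4726 bp past the start, within an untranslated region, and held TTCCCA. The Fzd7 peak (score 13.1) was centered 759 bp past the end of the gene. Fzd1, Fzd2, Fzd3, Fzd4, Fzd6, Fzd8, Fzd9 and Fzd10 had no peak in either list. The Frizzled genes are mostly short, and their territories (each the gene with 25 kb on either side) were between 52.3 and 111 kb.

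Both co-receptor genes had peaks in both lists, which for 2 genes gives an interval of 15.8 to 100%, beside 11.2% of the other protein-coding genes. Lrp5 (ENSMUSG00000024913.9) had 4 asynchronous peaks and 1 mitotic peak, and its pair lay 8921 bp past its end. The asynchronous peak of the pair, chr19:3575818-3575990, scored 17.7, above 91.4% of its list and level with the highest asynchronous score at any Wnt pathway gene. The mitotic peak, chr19:3575769-3575971, was at the lowest score of its list, 10.2. They overlapped by 154 bp with centers 34 bp apart, and the asynchronous center was 155 bp upstream of the start of Ppp6r3, a regulatory subunit gene of a protein phosphatase. The site was therefore a promoter of the neighboring gene by position. In RefSeq (GRCm38.p6) the tRNA gene n-TAagc9 lies 110.3 kb from the start of Lrp5 and the pair lay 110660 bp from it in mm9, although the printed sequence held no B box.

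The other asynchronous peaks of Lrp5 lay upstream, at 1497 bp (score 11.4), 13068 bp (score 10.6) and 22071 bp (score 11.0). The first was closest to the start of Lrp5, and the others were closer to 1810055G02Rik, an uncharacterized gene. Lrp6 had an asynchronous peak (score 13.5) 20937 bp past its end, inside Bcl2l14, a gene of the BCL2 family. Its mitotic peak (score 10.2) was in its own intron, 74044 bp from the asynchronous peak, so the lists marked different positions around this gene.

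Dishevelled genes encode the cytoplasmic adaptors downstream of the receptors. Dvl2 (ENSMUSG00000020888.10) had 5 asynchronous peaks, more than any other Wnt pathway gene, and 1 mitotic peak. Its territory of 61.7 kb overlapped the territories of 8 other protein-coding genes, among them Gabarap, an autophagy gene, and Acadvl, a gene of fatty acid oxidation. The pair was formed by chr11:69809073-69809245 (score 11.0) in asynchronous and chr11:69809030-69809232 (score 10.2) in mitotic cells, with an overlap of 160 bp and centers 28 bp apart. It lay 4938 bp upstream of Dvl2 and 120 bp upstream of the start of Phf23, a PHD finger gene. The asynchronous peak at chr11:69813920-69814092 (score 11.4) was at the promoter of Dvl2 itself, 91 bp upstream of the start. No peak of the mitotic list overlapped it. The remaining asynchronous peaks, with scores of 10.6 to 11.8, were closest to the starts of Ctdnep1, Gabarap and Acadvl.

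Dvl3 had an asynchronous peak (score 12.7) 18256 bp upstream, which was 91 bp from the start of the translation factor gene Eif2b5. Its mitotic peak (score 10.2) was on the other side of the gene, 90 bp past the start of Abcf3. Dvl1 had no peak, although the next 1 Mb on either side of its territory held 11.7 asynchronous and 10.9 mitotic peaks per Mb. The Dvl2 surroundings had the highest asynchronous density of the 46 genes, 15 peaks per Mb.

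**Figure D3:**
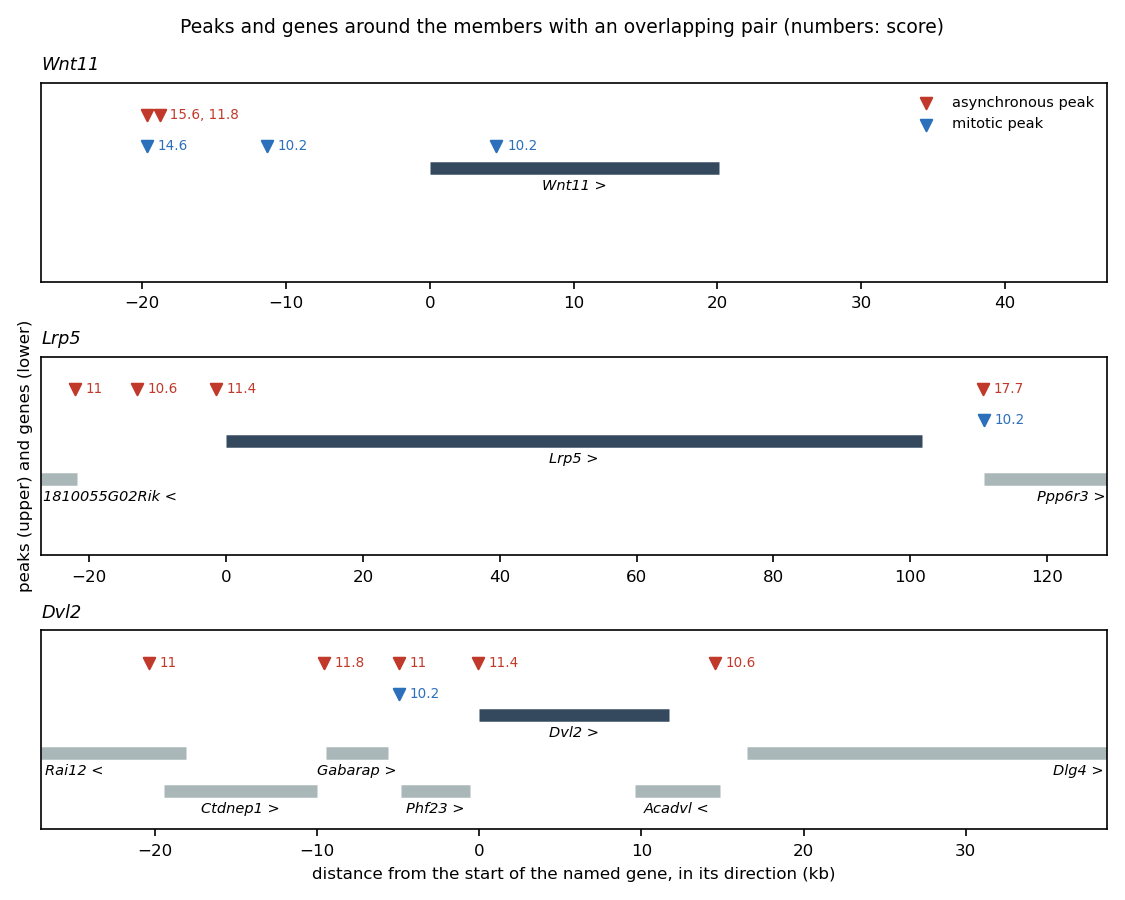
Peaks (triangles with their scores) and protein-coding genes (bars, with > or < for a direction equal or opposite to that of the named gene) by distance from the start of Wnt11, Lrp5 and Dvl2 (horizontal axis, kb). The Lrp5 and Dvl2 pairs lie at the starts of Ppp6r3 and Phf23, and the Wnt11 pair lies 19.7 kb upstream with no other gene shown.

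Ctnnb1 (ENSMUSG00000006932.9), the gene of β-catenin, had a peak of each list upstream, without overlap. The asynchronous peak, chr9:120828293-120828465 (score 11.8, above 46.1% of the list), was 9955 bp upstream of the start and held the RBPJ motif TTCCCACA at chr9:120828319-120828326, 56.5 bp from the center. The mitotic peak, chr9:120824296-120824498 (score 10.9), was 3982 bp farther from the gene and lacked the longer motif. It held an exact match to the CTCF core consensus at chr9:120824447-120824458, which overlapped TTCCCA at chr9:120824456-120824461. No other protein-coding gene was within 25 kb of these peaks.

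Of the genes of the destruction complex, Axin1 (ENSMUSG00000024182.9), the scaffold, had an asynchronous peak (score 11.0) at its promoter, 337 bp upstream of the start. Apc (ENSMUSG00000005871.7), a tumor suppressor, had an asynchronous peak of the same score at chr18:34407223-34407395, 39 bp upstream of the start of an internal transcript and 26731 bp past the gene start. Gsk3b, the kinase that marks β-catenin, had a mitotic peak (score 10.2) in an exon, 132 bp past the start. Axin2, a target gene and feedback inhibitor of the pathway, had no peak in either list.

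Of the genes for the TCF/LEF factors, which bring β-catenin to DNA, Lef1 (ENSMUSG00000027985.8) had 2 asynchronous peaks and 1 mitotic peak. The asynchronous peak at chr3:130805170-130805342 (score 17.7, above 91.4% of the list) was 8133 bp upstream of the start with no other protein-coding gene in reach. The other asynchronous peak (score 11.8) and the mitotic peak (score 11.6) lay past the end of Lef1 inside Hadh, a gene of fatty acid oxidation, with centers 1509 bp apart. Tcf7l2 (ENSMUSG00000024985.11) had an asynchronous peak (score 11.8) at its own promoter, 389 bp upstream of the start. Tcf7 and Tcf7l1 had no peak, the latter in a territory of 213 kb.

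Of the inhibitors, Nkd1, which binds Dishevelled, had a mitotic peak (score 12.4) in an intron 9323 bp past the start and no asynchronous peak. Dkk1, a secreted antagonist of Lrp5 and Lrp6, and Sfrp1, a secreted protein that binds Wnt ligands, had no peak. Nkd1 is on chromosome 8, which had 4.00 mitotic peaks per Mb where the whole genome had 1.22. The 1 Mb on either side of its territory held 11.0 mitotic peaks per Mb, the highest value of the 46 genes.

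Peak density takes the length of the genes into account. The territories of the Wnt pathway genes covered 4.08 Mb and held 29 distinct asynchronous peaks, or 7.11 per Mb (exact Poisson 95% interval 4.76 to 10.2), beside 3.15 per Mb in the territories of the other genes. They held 19 distinct mitotic peaks, or 4.66 per Mb (2.80 to 7.27), beside 1.82 per Mb. These intervals treat peaks as independent, although peaks clustered at some genes, with 5 asynchronous peaks at Dvl2 and 4 at Lrp5. They may therefore be too narrow. Both intervals lay above the density of the other genes. The interval contained it for asynchronous peaks inside the genes alone, at 3.12 per Mb (1.15 to 6.80) beside 2.46, and for mitotic peaks at or above the median score, at 1.47 per Mb (0.540 to 3.2) beside 1.05. With scores at least 1.2 times the lowest the interval contained it in both lists, at 2.70 (1.35 to 4.82) beside 1.47 for asynchronous and 0.735 (0.152 to 2.15) beside 0.382 for mitotic peaks. The DNA around the territories was also denser than the genome. Over the next 1 Mb on either side, outside the territories, there were 4.43 asynchronous (3.98 to 4.91) and 3.04 mitotic peaks per Mb (2.67 to 3.44), where the genome had 1.97 and 1.22. How far the surroundings account for the densities at the genes was not tested.

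The Wnt pathway genes were also compared with other genes in classes of territory length. The class over 120 kb had no upper limit, and its territories reached 242 kb for the Wnt pathway genes and 4485 kb for the others. In territories over 120 kb, 6 of 9 Wnt pathway genes had an asynchronous and 6 of 9 a mitotic peak, a share of 66.7% in each list (29.9 to 92.5), beside 27.3% and 19.6% of the other genes. Between 80 and 120 kb, 3 of 12 had an asynchronous and 3 of 12 a mitotic peak, or 25% each (5.49 to 57.2), beside 31.2% and 19.0%. Between 60 and 80 kb the shares were 46.2% (19.2 to 74.9) and 38.5% (13.9 to 68.4), beside 35.5% and 20.7%. In the shortest territories, of 50 to 60 kb, they were 16.7% each (2.09 to 48.4), beside 26.0% and 15.5%. The shares did not rise steadily with length, and the intervals contained the share of the other genes in each class except over 120 kb. The median territory was 72.6 kb for the Wnt pathway genes and 65.4 kb for the others.

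The counts changed with the distance allowed around the gene. Inside the genes alone, 5 Wnt pathway genes had an asynchronous peak, or 10.9%, beside 9.06% of the other genes, and 7 had a mitotic peak, or 15.2%, beside 5.99%. Within 10 kb the counts were 14, or 30.4%, beside 21.4%, and 10, or 21.7%, beside 12.4%. At 100 kb they reached 25, or 54.3%, beside 49.1%, and 23, or 50%, beside 35.3%. The share of the Wnt pathway genes was above that of the other genes at each distance plotted from 0 to 100 kb. Its interval contained the share of the other genes at every asynchronous distance and at every mitotic distance except 0 and 25 kb.

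**Figure D4:**
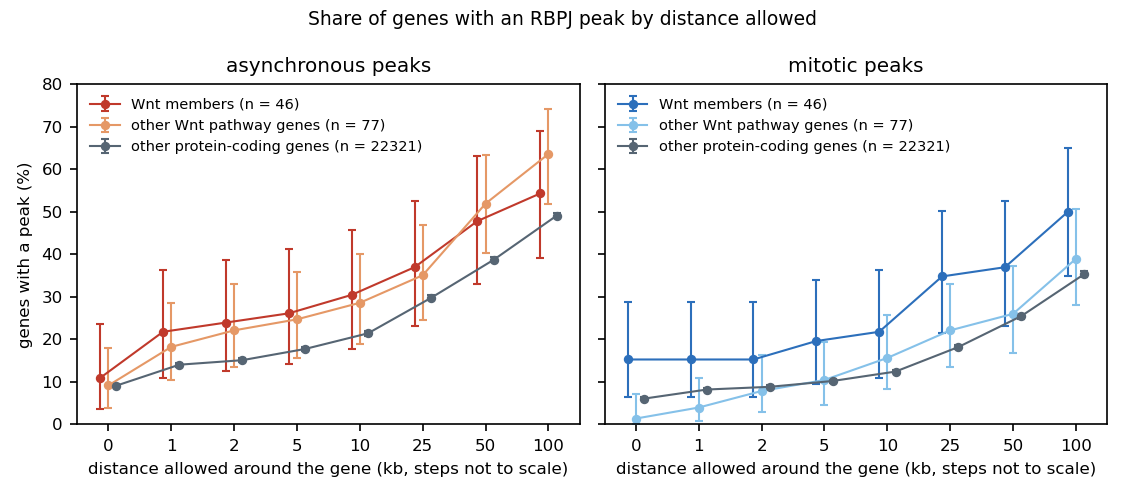
Share of genes with a peak (vertical axis, %) against the distance allowed around the gene (horizontal axis, kb, steps not to scale) for asynchronous (left) and mitotic peaks (right), with exact 95% intervals as bars. The 46 Wnt pathway genes lie above the other protein-coding genes at each distance and their mitotic interval leaves out the value of the other genes at 0 and 25 kb.

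Assignment to a Wnt pathway gene did not make it the nearest gene. The nearest gene start belonged to a Wnt pathway gene for 16 of the 29 asynchronous and 11 of the 19 mitotic peaks. Protein-coding genes outside the set were within reach of 19 asynchronous and 8 mitotic peaks. The asynchronous peaks at these genes were at promoters of any gene in 12 of 29 cases, or 41.4% (23.5 to 61.1), beside 31.2% of all other asynchronous peaks. For 5 of these genes, Wnt7a, Dvl2, Axin1, Apc and Tcf7l2, the promoter was their own. Mitotic peaks were at promoters in 4 of 19 cases, or 21.1%, beside 20.4%, and for Wnt5b alone the promoter was its own. These counts of own promoters are given without a share of the other genes.

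The scores of the asynchronous peaks at the Wnt pathway genes had a median of 11.8, as in the whole list. Of these peaks 10.3% (2.19 to 27.4) scored above 90% of the list, beside 9.60% of the other peaks. At the lowest score were 6.90% (0.846 to 22.8), beside 14.4%, a share that the interval contained. The highest scores were 17.7, at Lrp5 and Lef1, where the whole list reached 58.3. Mitotic peaks at these genes had low scores, with 13 of 19, or 68.4% (43.4 to 87.4), at the lowest score, beside 42.5% of the other mitotic peaks. The exceptions were the peaks at Wnt11 (14.6), Nkd1 and Wnt1 (12.4 each), Wnt5b and Lef1 (11.6 each) and Ctnnb1 (10.9). The pairs made up 10.3% of the asynchronous (2.19 to 27.4) and 15.8% of the mitotic peaks at these genes (3.38 to 39.6), beside 7.73% and 12.5% of the other peaks.

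**Figure D5:**
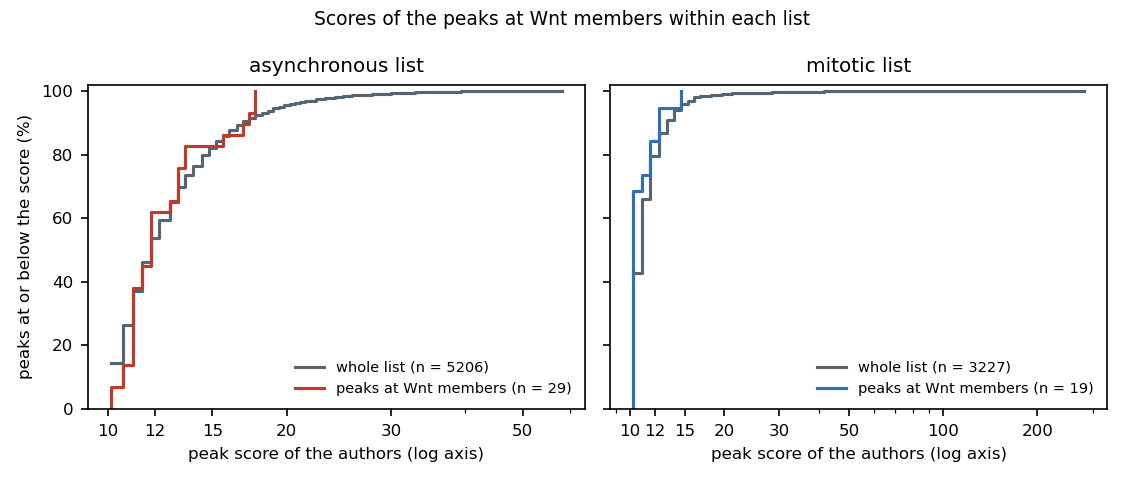
Share of peaks at or below each score (vertical axis, %) against the authors' score (horizontal axis, logarithmic) for the asynchronous (left) and mitotic list (right), with the peaks at Wnt pathway genes in color. Of the asynchronous peaks at these genes 6.90% sit at the lowest score, beside 14.4% of the other peaks, and their highest score is 17.7. Of the 19 mitotic peaks at these genes 13 sit at the lowest score.

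Motifs were searched on both strands, and a match is a description of the letters. TTCCCACA or TTCCCACG was in 2 of the 29 asynchronous peaks, at Wnt5b and Ctnnb1, or 6.90% (0.846 to 22.8), beside 9.10% of all other asynchronous peaks and 1.62% of windows of the same width placed 2 kb to either side of those. None of the 19 mitotic peaks held it, which allows a share of up to 17.6% (the exact upper bound), beside 3.55% of the other mitotic peaks. TTCCCA was in 41.4% of the asynchronous peaks (23.5 to 61.1), beside 35.9%, and in 21.1% of the mitotic peaks (6.05 to 45.6), beside 25.2%. The peaks at Wnt pathway genes thus carried RBPJ motifs at shares not distinguishable, at this number of peaks, from those elsewhere.

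The TCF/LEF motif CTTTGAA or CTTTGAT was in none of the 29 asynchronous peaks, which allows a share of up to 11.9%, beside 4.21% of the other peaks. It was in 7 of the 58 windows 2 kb to either side of these peaks, or 12.1% (4.99 to 23.3), beside 5.98% of the windows of other peaks. Among the mitotic peaks it was in the Wnt5b peak alone, or 5.26% (0.133 to 26.0), beside 5.17%. The CTCF core consensus, at most 1 mismatch, was in 4 asynchronous peaks, at Wnt6 and Wnt10a, Wnt7a, Lrp5 and Lef1, or 13.8% (3.89 to 31.7), beside 18.1%. Mitotic peaks at Wnt3a and Ctnnb1 held it, or 10.5% (1.30 to 33.1), beside 8.29%. The median GC content was 57.2% in the asynchronous peaks at Wnt pathway genes, beside 56.1% elsewhere, and 54.2% beside 53.7% in the mitotic peaks.

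A list of 77 other genes of the pathway, from ligand secretion to nuclear co-factors, was counted in the same way. An asynchronous peak was assigned to 27 of them, or 35.1% (24.5 to 46.8), beside 29.7% of the protein-coding genes outside the 46, and a mitotic peak to 17, or 22.1% (13.4 to 33.0), beside 18.2%. Both intervals contained the share of those genes at 25 kb. Within 50 kb the asynchronous share was 51.9% (40.3 to 63.5), beside 38.7%, and within 100 kb it was 63.6% (51.9 to 74.3), beside 49.1%, and there the intervals lay above. The mitotic shares at these distances were 26.0% (16.6 to 37.2), beside 25.4%, and 39.0% (28.0 to 50.8), beside 35.3%. Both mitotic intervals contained the share of the other genes. The density was 4.86 asynchronous (3.5 to 6.56) and 2.08 mitotic peaks (1.23 to 3.29) per Mb of their territories, beside 3.15 and 1.82. A pair was present at 2 of these genes, or 2.60% (0.316 to 9.07), beside 3.93%. They were Celsr1 and Celsr2, which encode cadherins of planar cell polarity, the branch of Wnt signaling that orients cells in a sheet. The Celsr1 pair lay 1.24 kb upstream of its start, with scores of 12.2 in the asynchronous and 11.6 in the mitotic list. The Celsr2 pair, with scores of 12.2 and 10.2, was closest to the start of Psrc1. By function, an asynchronous peak was assigned to 8 of 13 genes of non-canonical receptors and planar polarity (61.5%, 31.6 to 86.1), the only group whose interval left out the 29.7% of the other genes. The counts were 2 of 3 for ligand secretion and inactivation (Porcn and Notum), 7 of 21 for cytoplasmic regulators and 6 of 17 for nuclear co-factors. They were 3 of 14 for secreted inhibitors and 1 of 9 for the R-spondin and Lgr module. Mitotic peaks were assigned to 4, 1, 4, 6, 2 and 0 genes of these groups in the same order, and each interval contained 18.2%.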

How the data were processed

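Anti-RBPJ chromatin immunoprecipitation and sequencing in F9 cells was examined through 2 peak lists, from the first asynchronous and the first mitotic precipitation. The second precipitations and the inputs had no list and were not analysed here. The authors aligned reads to mm9 with Bowtie 0.12.7, called peaks with HOMER against the input, and wrote the score of each peak as deposited, on a scale that is not stated. Read depth is not given in the lists, and the paper describes a minimum normalized read count for peaks. Scores took discrete values, which rose from the lowest as 10.1, 10.6 and 11.0 in the asynchronous list. In the mitotic list they rose in wider steps, as 10.2, 10.9 and 11.6. Whether these steps reflect read depth was not tested. Precision is set by the number of genes or peaks.

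Analysis used Python 3.11.15 with scipy 1.17.1 for the intervals, pysam 0.24.0 for sequences, matplotlib 3.10.9 for plots, and numpy 2.4.6 and pandas 2.3.3 throughout. Genes came from GENCODE for NCBIM37, the build of mm9. RefSeq (GRCm38.p6) gave the tRNA genes only, with no coordinate carried over. A promoter was the DNA between 1 kb before and 100 bp after any transcript start, and took priority over termination region, exon, intron, distal promoter and intergenic DNA. Values are given in full for genes with a pair, a peak at their own promoter, a peak with the RBPJ motif, a peak above 90% of its list or 3 or more peaks. Gene and motif assignment were tested on simulated data. Members and lists were chosen with earlier results of these data known, so shares are described beside those of other genes. Whether an interval contained the value of the other genes is stated as a description, and no difference was tested. Alternatives were tried for the distance, score minimum, assignment, overlap, motifs and promoter. Of 78 other pathway symbols sought, 1 was not matched, and a pseudogene record of Fzd10 was left out.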

Additional observations from a re-analysis of the deposited data

How the results depend on the processing

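Of 57 values recomputed under alternatives for 11 results, 35 stayed close and 22 did not. Close means within 1.5 times for a count of genes, and within the 95% interval for densities, shares of peaks and gene shares without chromosomes 6, 8 and 12. With peaks inside the gene only (0 kb), 5 Wnt pathway genes had an asynchronous peak, 7 a mitotic peak, 1 both and 0 a pair, with 3.12 asynchronous peaks per Mb, beside 9.06%, 5.99%, 2.05%, 0.748% and 2.46 per Mb for other genes. Within 10 kb, 10 had a mitotic peak and 3 both, beside 12.4% and 6.33%. With scores at least 1.2 times the lowest, 9 had an asynchronous peak, 4 a mitotic peak, 1 both and 1 a pair, with 2.70 and 0.735 peaks per Mb, beside 16.3%, 4.87%, 2.79%, 1.25%, 1.47 and 0.382. With scores at or above the median, 7 had a mitotic peak, 4 both and 1 a pair, with 3.92 and 1.47 peaks per Mb, beside 11.7%, 5.86%, 2.34%, 1.71 and 1.05. With each peak given only to the gene with the nearest start, 9 had a mitotic peak and 3 both, beside 9.10% and 3.98% of other genes. The share of asynchronous peaks with an RBPJ motif was 41.4% for TTCCCA, beside 35.9% of the other asynchronous peaks. With no mismatch allowed, the share with a CTCF motif was 0, which allows up to 11.9%, beside 6.70%. Fewer positions, peaks, assignments or matches were admitted under each of these settings except TTCCCA, which admits more; any further cause was not tested.

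The interval of the mitotic share, which lay above the other genes at 25 kb with all peaks, contained their value within 10 and 50 kb and at both score minimums. That of the asynchronous share contained it except with the nearest start alone, at 30.4% (17.7 to 45.8) beside 15.4%. The share of Wnt pathway genes with both peaks was below that of other genes at the 1.2-fold score minimum, at 2.17% beside 2.79%, and the share with a pair did so inside genes (0 beside 0.748%) and at the median score (2.17% beside 2.34%). Without chromosomes 6, 8 and 12, the counts were 14, 13, 7 and 3 genes. Asynchronous peaks lay at 36.8% of the remaining Wnt pathway genes, beside 28.9% of other genes. Mitotic peaks lay at 34.2% (19.6 to 51.4), beside 16.5%, which the interval left out. Both peaks were at 18.4%, beside 9.85%, and a pair at 7.89%, beside 3.44%. Counting Wnt pathway genes with the same peaks once gave 16 with an asynchronous and 15 with a mitotic peak. The other genes were not merged in this way, so these counts have no share to stand beside. The exclusion of chromosomes and this merging were both chosen after seeing the data. No paired analysis was possible because each population had 1 list. The number of peaks limits every share, and 1 list per population leaves variation between cultures unmeasured.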

Other observations

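Transfer RNA genes were looked for after the Wnt11 sequence was seen. Wnt11 is counted in the shares below, so they are not independent of the observation that prompted the search. In RefSeq (GRCm38.p6), 3 of the 46 genes (Wnt10a, Wnt11 and Lrp5), or 6.52%, had a tRNA gene within 25 kb, beside 271 of 21850 other protein-coding genes, or 1.24%. The tRNA gene of Wnt10a lay 24.8 kb past its start, where the closest peak of Wnt10a was 16785 bp past the start in mm9. The tRNA B box, GTTCGANTC or GTTCAANTC on either strand, was in 2 of the 29 asynchronous peaks at Wnt pathway genes, at Wnt11 and in the Lrp5 peak 13068 bp upstream of that gene, or 6.90% (0.846 to 22.8), beside 0.831% of other asynchronous peaks. That Lrp5 peak was not at the tRNA gene, which in RefSeq lies 110.3 kb past the start of Lrp5, on the other side. Windows 2 kb to either side of the peaks held the B box in 3.45% and 2.29% of cases. In the mitotic list, 33 of 3227 peaks held the motif, or 1.02%, among them the Wnt11 peak.

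Among the other genes of the pathway, the RBPJ motif TTCCCACA or TTCCCACG was in 2 of the 42 distinct asynchronous peaks, beside 9.10% of all asynchronous peaks away from the 46 genes, so it was no more frequent there. The 2 peaks were at Notum and Apcdd1, which were chosen for mention after their values were seen. Notum encodes a secreted enzyme that inactivates Wnt ligands, and its peak with the motif (score 16.0) was at a promoter inside the gene, 2026 bp past the gene start. Apcdd1 encodes a membrane inhibitor of Wnt signaling, and its peak with the motif (score 22.4, above 96.8% of the list) was at the promoter of the neighboring gene Napg. Neither peak overlapped a mitotic peak.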
